A study of Homo sapiens with 6 samples.

Results

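De novo purine synthesis builds the purine ring atom by atom on a ribose phosphate and ends in inosine monophosphate, IMP, which is then converted to AMP or to GMP. The pathway uses glutamine, glycine, aspartate and formyl groups carried by folate, and it is a textbook source of the nucleotides that dividing cells need for RNA and DNA. Its enzymes were represented by 10 genes: PPAT, GART, PFAS, PAICS, ADSL and ATIC for the steps to IMP, IMPDH1, IMPDH2 and GMPS for the GMP branch, and ADSS2 for the AMP branch. Every probe set whose platform annotation named one of them was taken, and a gene was read from its brightest probe set, judged by the mean of all 6 arrays. This gave 24 probe sets for 9 of the 10 genes, out of 54675 probe sets and 19775 genes. ADSS2 was not named for any probe set in the annotation used and was not analysed here, and no probe set listed a member among several symbols.

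The cells were HCT116, a human colorectal carcinoma line. Those of the treated group received 30 nM of an ON-TARGETplus SMARTpool siRNA against CDK4 and 30 nM of a Silencer Select siRNA against CDK6, a single siRNA product. The control group received 30 nM each of an ON-TARGETplus Non-Targeting Control Pool and a Silencer Select Negative Control, and RNA was taken from both 96 h after transfection. There were 3 arrays per group, called biological replicates in the labels, which do not say whether the cultures were started separately, so the spread behind each p-value is that of these arrays and may be partly technical.

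CDK6 fell to 34.0% and CDK4 to 62.2% of the control level, and MYC, the transcription factor in the series title, rose by 0.42 on the log2 scale (limma adjusted p = 7.19e-06, 0.00043 and 0.00101, n = 3 per group). Array medians lay between 5.36 and 5.39, and the lowest correlation between arrays of a group was 0.998 across genes. Of the 7 epithelial and colorectal markers, EPCAM, CDH1, KRT8, KRT18 and KRT19 were bright, while the intestinal markers CDX2 and VIL1 were dim, with means as low as 5.06. The 3 leukocyte and 3 endothelial markers had means of 3.83 to 6.26, and of 4 fibroblast markers COL1A1 was the brightest at 7.84. Some of these markers changed as much as the enzymes below. KRT8 rose by 0.59 and KRT18 by 0.51, while CDH1 fell by 0.54 and COL1A1 by 0.49 (limma adjusted p from 0.000184 to 0.000902), and 0 of the leukocyte and endothelial markers passed. Their part in the enzymes' changes was not tested.

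All 6 genes for the steps to IMP were higher after CDK4/6 siRNA, by log2 values of 0.19 to 0.59, and none of the 3 genes of the GMP branch passed the test on its brightest probe set. The smallest of these rises, that of PAICS, was the one whose call did not survive leaving out single arrays. In bulk RNA a change in the share of cells in some state and a change per cell cannot be told apart. Values are on the log2 scale that RMA gives, each fold change is the mean of the CDK4/6 siRNA arrays minus that of the control arrays, and a gene was called changed at a limma adjusted p under 0.05 over all 19775 genes. In this comparison 26.8% of all genes were called, 14.0% in the higher direction and 12.9% in the lower. Against that background 6 of the 9 measured enzymes were called, 6 higher and 0 lower, with a median of 0.29, while the median of all genes was -0.0011. The background includes dim genes, while the enzymes were bright, their means ranking at 70.5% to 99.2% among all genes. With the dimmest genes left out 6 enzymes were called higher, and 5785 of the fewer remaining genes were called, against 5307 of 19775. The 26.8% is therefore a low background for genes this bright, and the 6 of 9 cannot be weighed against it. The share called higher was not computed with dim genes left out, and enrichment was not tested. The scale itself has an uncertainty, since RNA controls spiked into the hybridisation averaged 10.25 with control siRNA and 10.15 with CDK4/6 siRNA, and scaling to these spike-ins moves every gene up by 0.11. Under that scaling 6 enzymes were again called higher and the median became 0.40, against 0.11 for all genes. The number of all genes called in either direction was 6051 under it, against 5307 without. The share of all genes called higher under it was not computed. At an adjusted p under 0.01, 5 of the 9 were called higher, against 9.12% of all genes.

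**Figure D1:**
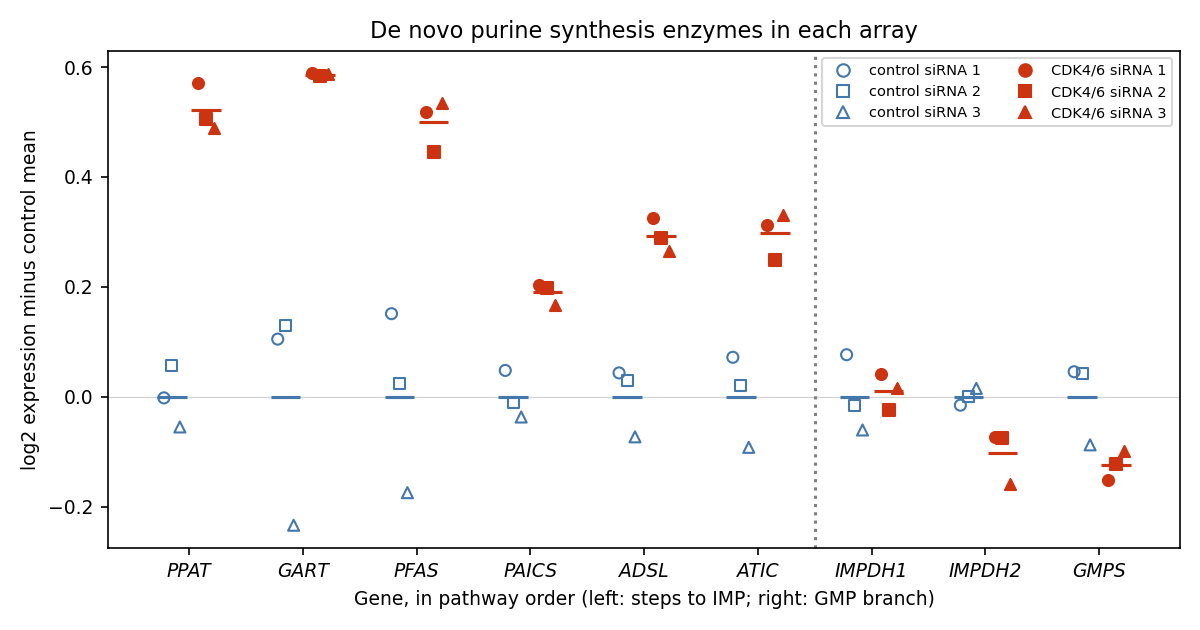
The log2 expression of each enzyme in each of the 6 arrays is plotted minus that gene's control mean, with control siRNA arrays as open blue symbols, CDK4/6 siRNA arrays as filled red symbols, marker shape for the replicate number and short lines for group means. For PPAT, GART, PFAS, PAICS, ADSL and ATIC the 3 red symbols lie above the 3 blue ones, while for IMPDH1 they mix and for IMPDH2 and GMPS they lie slightly below.

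Since genes of the steps to IMP were higher together, their promoters were read from RefSeq (GRCh38.p14), whose table held 8 of the 10 members. ADSL and IMPDH2 were absent from it, while ADSS2, which was not measured, was present. PPAT and PAICS are divergent neighbours on chromosome 4, and 136 bases, 75% of them G or C, separate the PPAT start from one of 3 annotated PAICS starts. They are shown because the pair shares them, on the minus strand from chr4:56435616-56435751, reading towards PPAT.
PPAT and PAICS: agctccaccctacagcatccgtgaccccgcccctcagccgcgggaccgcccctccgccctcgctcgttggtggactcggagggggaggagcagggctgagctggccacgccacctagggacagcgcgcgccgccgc
Motifs were searched on both strands in windows of 300 bases, from 250 before to 50 after each start: the E-box CACGTG, which MYC and MAX bind, the E2F motifs TTTCCCGC and TTTGGCGC and the palindromic NRF1 motif. Capitals mark the match in the following excerpts, which are shown because they hold every match found in the windows of these 8 members.
PPAT and PAICS, chr4:56435782-56435807, minus strand: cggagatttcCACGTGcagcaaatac
ATIC, chr2:215312003-215312028, plus strand: gccggcgggcCACGTGataagcccgg
ATIC, chr2:215312078-215312103, plus strand: cctacctgcgCACGTGgtgccgccgc
GART, chr21:33542342-33542367, minus strand: agcatTTTGGCGCtcccccccggcgc
The first E-box begins 182 bases before the PPAT start, and the same bases begin at position 41 of the PAICS transcript from that start. The ATIC E-boxes begin 46 bases before the start and at position 30 after it, and the GART match begins 245 bases before one of its 3 annotated starts. An E-box was present in a window of 3 of these 8 genes, an E2F motif in 1 and the NRF1 motif in 0. PPAT and PAICS are both counted for the same E-box, so the 3 genes are not separate finds. Of all 27305 genes in the table, 8.77% had an E-box, 2.75% an E2F motif and 1.52% the NRF1 motif. The 8 members had 13 windows. PAICS and GART had 3 each, with a match in 1, so they had more chances of a match than a gene with 1 window. Of all 35116 windows, 7.26% held an E-box, 2.27% an E2F motif and 1.24% the NRF1 motif. These are matches of letters, no binding was measured, and a link to the expression changes was not tested.

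PPAT, the amidophosphoribosyltransferase that commits PRPP to purine synthesis, read 10.05, 10.11 and 9.99 in the control arrays and 10.62, 10.55 and 10.54 in the CDK4/6 siRNA arrays. Every CDK4/6 siRNA array was above every control array, as it was in the higher direction for 20.6% of all genes. PPAT rose by 0.52 on the log2 scale, 1.44-fold (SE 0.057, limma adjusted p = 0.000294, n = 3 per group). Its second probe set rose by 0.45 (limma adjusted p = 0.00183 over all probe sets). The third probe set, dim at a mean of 4.88 and the only one with a plain name (no letter before its _at ending, a letter that flags probes matching several transcripts), gave -0.15 with overlapping groups and did not pass (adjusted p = 0.517). Averaged over the 3 probe sets PPAT rose by 0.28 (limma adjusted p = 0.00569).

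GART, an enzyme with several active sites that adds glycine, transfers a formyl group and closes the imidazole ring, read 9.38, 9.40 and 9.04 in the control arrays and 9.86, 9.86 and 9.86 in the CDK4/6 siRNA arrays. The CDK4/6 siRNA arrays lay together, and control replicate 3 was the lowest array. GART rose by 0.59, 1.50-fold (SE 0.094, limma adjusted p = 0.0018, n = 3 per group), and by 0.47 without control replicate 3. Averaged over its 9 probe sets, most of them dim, the rise was 0.27 (limma adjusted p = 0.00536). Of its 9 probe sets 4 were called higher and 5 were not called, against 8.86% of all probe sets called higher. The other called probe sets rose by 0.60, 0.40 and 0.53. The 5 that did not pass had means of 2.94 to 6.10 and fold changes of -0.11 to 0.16.

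PFAS, a glutamine-using synthase that acts between the formyl transfer and the ring closure of GART, is named by 1 probe set. It read 8.25, 8.12 and 7.92 in the control arrays and 8.62, 8.54 and 8.63 in the CDK4/6 siRNA arrays. The groups did not overlap, and control replicate 3 was again the lowest. PFAS rose by 0.50, 1.41-fold (SE 0.083, limma adjusted p = 0.00226, n = 3 per group), and by 0.41 without control replicate 3.

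PAICS, which carries out a carboxylation and the addition of aspartate, had the smallest rise of the called enzymes. It read 12.13, 12.07 and 12.04 in the control arrays and 12.28, 12.28 and 12.25 in the CDK4/6 siRNA arrays, without overlap. The rise was 0.19, 1.14-fold (SE 0.053, limma adjusted p = 0.028, n = 3 per group). The call was lost without control replicate 2 or 3 or CDK4/6 replicate 1, 2 or 3, with limma adjusted p between 0.0652 and 0.0825, and was also lost when adjusted over all probe sets (0.0603). A second bright probe set gave 0.18 (limma adjusted p = 0.101), and a dim one, at a mean of 5.05, rose by 0.23 (limma adjusted p = 0.0376). All 3 PAICS probe sets had every CDK4/6 siRNA array above every control array, as did 16.1% of all probe sets.

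The divergent neighbours were compared within arrays. PAICS minus PPAT was 2.08, 1.96 and 2.05 in the control arrays and 1.66, 1.72 and 1.71 in the CDK4/6 siRNA arrays, and only its change can be read, since levels of different probe sets are not comparable. The difference fell by 0.33, without overlap (two-sided exact permutation p = 0.1, the smallest that 3 arrays against 3 allow, and 0.133 adjusted over 4 such contrasts). The direction rests on the probe sets chosen. Averaging the probe sets of each gene made the change -0.078, and with the dim plain-name probe sets it was 0.37.

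ADSL, adenylosuccinate lyase, acts in IMP synthesis and again in the AMP branch. It read 11.03, 11.02 and 10.91 in the control arrays and 11.31, 11.27 and 11.25 in the CDK4/6 siRNA arrays. The groups did not overlap on either of its probe sets. ADSL rose by 0.29, 1.23-fold (SE 0.057, limma adjusted p = 0.00493, n = 3 per group), and its second probe set rose by 0.35 (limma adjusted p = 0.00442 over all probe sets).

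ATIC adds the last formyl group and closes the ring to IMP. Its only probe set read 10.70, 10.65 and 10.54 in the control arrays and 10.94, 10.88 and 10.96 in the CDK4/6 siRNA arrays, again without overlap. ATIC rose by 0.30, 1.23-fold (SE 0.062, limma adjusted p = 0.00697, n = 3 per group). Control replicate 3 was the lowest control for all 6 genes of the steps to IMP and for 8 of the 9 enzymes. Without it 5 enzymes were called higher, 4251 of all genes were called in either direction, and the median of the 9 was 0.25.

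**Figure D2:**
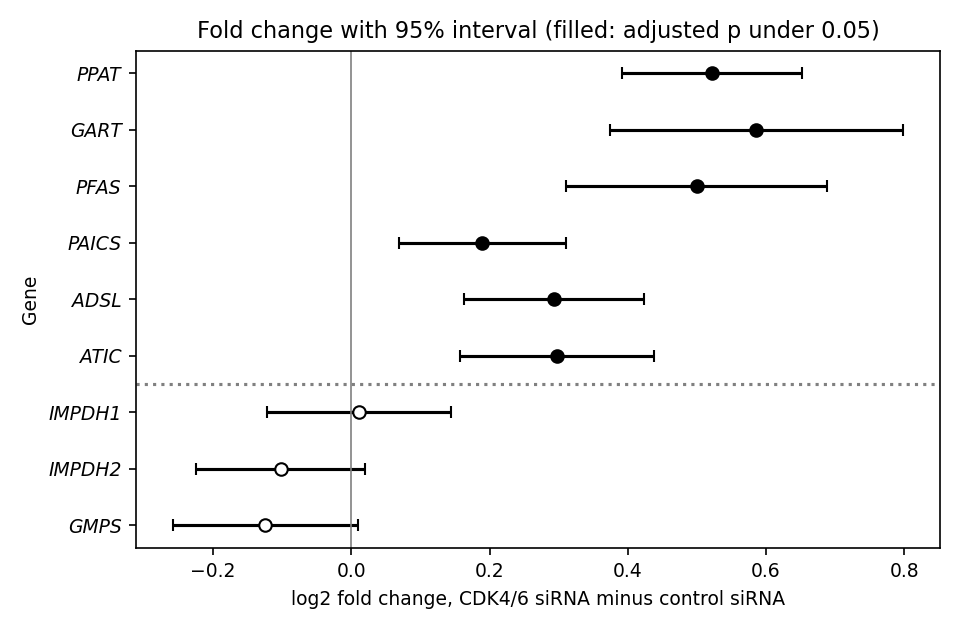
The log2 fold change of each enzyme, CDK4/6 siRNA minus control siRNA, is shown with its 95% interval from limma, in pathway order from top to bottom, and filled points have an adjusted p under 0.05. The 6 genes of the steps to IMP are filled and run from 0.19 to 0.59, and the intervals of IMPDH1, IMPDH2 and GMPS below the dotted line include 0.

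IMPDH1 and IMPDH2 are isozymes that oxidise IMP in the rate-limiting step towards GMP, and each is named by 1 probe set. IMPDH1 read 8.25, 8.15 and 8.11 in the control arrays and 8.21, 8.15 and 8.19 in the CDK4/6 siRNA arrays. The groups overlapped, and the difference was 0.011 with a 95% interval of -0.12 to 0.14 (limma adjusted p = 0.923, n = 3 per group). IMPDH2 read 12.86, 12.87 and 12.89 in the control arrays and 12.80, 12.80 and 12.71 in the CDK4/6 siRNA arrays. Every CDK4/6 siRNA array was below every control array, as for 20.3% of all genes in that direction. The difference of -0.10 had a 95% interval of -0.22 to 0.020 and did not pass (limma adjusted p = 0.216, n = 3 per group). With trend and robust options IMPDH2 was called lower at the same fold change (limma adjusted p = 0.0313), and with the spike-in scaling its difference was 0.0061.

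IMPDH2 minus IMPDH1, compared within arrays, changed by -0.11 with overlapping groups (two-sided exact permutation p = 0.2, n = 3 per group). IMPDH2 was also set against PPAT, a contrast chosen after the values were seen. IMPDH2 minus PPAT read 2.81, 2.77 and 2.90 in the control arrays and 2.18, 2.24 and 2.18 in the CDK4/6 siRNA arrays. Its change of -0.62 was without overlap (two-sided exact permutation p = 0.1, the smallest possible, and 0.133 adjusted over 4 contrasts), and it does not move with the scaling of arrays. In each CDK4/6 siRNA array PPAT was above and IMPDH2 below every control array. That exact p was therefore fixed by the values of the 2 genes and adds no support. With the mean of all PPAT probe sets the change was -0.38. Over all genes of each branch the steps to IMP and the GMP branch were not tested against each other.

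GMPS, which aminates XMP to GMP with glutamine, gave different answers on its 3 probe sets. The brightest read 10.36, 10.36 and 10.23 in the control arrays and 10.17, 10.19 and 10.22 in the CDK4/6 siRNA arrays. The groups were apart by a narrow margin, and the difference of -0.12 (95% interval -0.26 to 0.0095) did not pass (limma adjusted p = 0.168, n = 3 per group). The second read 7.26, 7.23 and 6.90 in the control arrays and 7.95, 7.99 and 8.01 in the CDK4/6 siRNA arrays. It rose by 0.85 (SE 0.096, limma adjusted p = 0.000459 over all probe sets), which was the largest change among the 24 probe sets. The third, at a mean of 6.60, gave 0.21 with overlapping groups and did not pass (limma adjusted p = 0.202).

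The second GMPS probe set minus the brightest changed by 0.98 between the groups, with all 3 CDK4/6 siRNA arrays at -2.21 and the control arrays between -3.33 and -3.10 (two-sided exact permutation p = 0.1, the smallest possible, a contrast chosen after the values were seen). In each CDK4/6 siRNA array the second probe set was above and the brightest below every control array. That exact p was therefore fixed in advance and adds no support. With the mean of the 3 probe sets GMPS was called higher, by 0.31 (limma adjusted p = 0.0124). The statement that no gene of the GMP branch passed therefore holds for the brightest probe sets and not for every GMPS probe set. Which transcripts the GMPS probe sets detect was not examined.

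**Figure D3:**
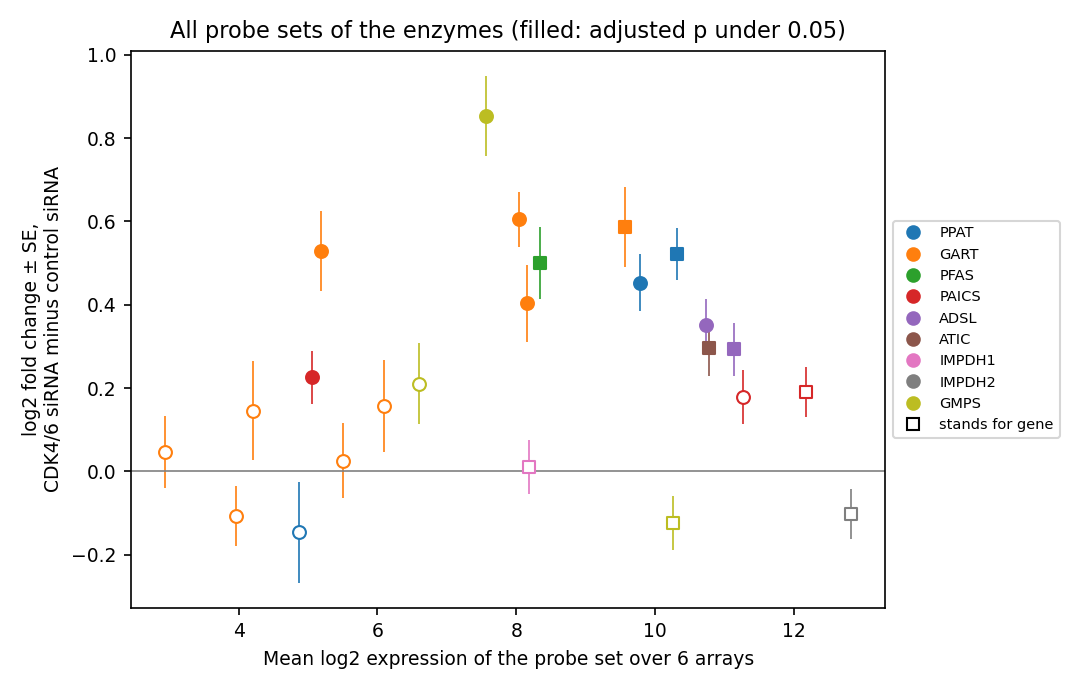
Each of the 24 probe sets of the 9 enzymes is placed by its mean log2 expression over the 6 arrays and its log2 fold change, CDK4/6 siRNA minus control siRNA, with bars of 1 SE; colours mark genes, squares the probe set that stands for the gene, and filled symbols an adjusted p under 0.05 over all probe sets. The second GMPS probe set stands highest at 0.85 while the brightest GMPS probe set lies at -0.12, and 5 of the 7 probe sets with means under 6 are open.

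Over all 24 probe sets 12 were called higher, 0 lower and 12 were not called. Of all probe sets 17.0% were called in either direction, 8.86% higher and 8.17% lower. These shares include many dim probe sets, and enrichment was not tested. Of the 7 with a mean under 6, 2 were called, 1 of GART and 1 of PAICS. For PPAT, GART and ADSL more than 1 probe set passed in the same direction, PFAS and ATIC rest on 1 probe set each, and PAICS passed on its brightest probe set only in the test over genes.

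The neighbouring steps of purine metabolism were read from 5 further lists, whose counts stand beside 14.0% of all genes called higher and 12.9% lower. No list was tested against these shares, and the share called in either direction is larger with dim genes left out. Dim genes were counted as measured. The lowest gene mean was 4.22 in one-carbon supply, 4.58 in interconversion and 5.25 in breakdown, against 8.18 among the de novo enzymes, so the list medians are not fully alike. PRPP supply makes the starting sugar phosphate. Of 4 genes 1 rose and 1 fell, with a median of 0.052, against 26.8% of all genes called in either direction. So few calls are no result about the list. PRPS1 read 9.77, 9.64 and 9.44 in the control arrays and 10.07, 10.04 and 10.20 in the CDK4/6 siRNA arrays and rose by 0.49 (limma adjusted p = 0.00375), and its second probe set rose by 0.53. The PRPS1 call was lost without variance moderation. PRPS2 fell by 0.21 (limma adjusted p = 0.0249). That call was lost without control replicate 1 or 3 or any 1 of the CDK4/6 replicates, and with the spike-in scaling. It was also lost when adjusted over all probe sets (limma adjusted p = 0.0504), and the second PRPS2 probe set gave -0.019. The regulatory subunit PRPSAP2 gave 0.12 and did not pass (limma adjusted p = 0.183).

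Salvage enzymes return free bases and nucleosides to nucleotides. Of 7 genes 3 rose and 0 fell, with a median of 0.11. The 42.9% called stand against 26.8% of all genes called in either direction and 14.0% called higher. The shares of all genes include dim genes, while the salvage genes had means of 9.02 to 11.40. The 42.9% is therefore no result about the list. PNP, which splits purine nucleosides, rose by 0.58 (1.50-fold, limma adjusted p = 0.000225). MTAP, which frees adenine from methylthioadenosine, rose by 0.53 (limma adjusted p = 0.00045), and adenosine kinase, ADK, rose by 0.30 (limma adjusted p = 0.00355). The second ADK probe set gave 0.25 and did not pass (limma adjusted p = 0.336 over all probe sets). HPRT1, which salvages hypoxanthine and guanine, gave 0.026 with a control range of 11.34 to 11.41 and did not pass. With the spike-in scaling 5 salvage genes were called higher, while the number of all genes called in either direction rose from 5307 to 6051. That scaling moves every gene up, and the share of all genes called higher under it was not computed. The 5 calls are therefore no result about the list.

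Among enzymes that interconvert purine nucleotides, 2 of 9 measured genes rose and 1 fell, with a median of 0.13. These 3 calls in 9 genes, 33.3%, are near the 26.8% of all genes called and are no result about the list. The nucleoside diphosphate kinase NME1 rose by 0.49 (limma adjusted p = 0.00114), and the adenylate kinase AK1 rose by 0.36 (limma adjusted p = 0.00266), though its second probe set gave 0.079 and did not pass. The AMP deaminase AMPD2 fell by 0.22 (limma adjusted p = 0.0285). That call was lost without control replicate 2 or 3 or CDK4/6 replicate 2 or 3 and without variance moderation. It was also lost when adjusted over all probe sets (limma adjusted p = 0.0546). With the spike-in scaling 5 genes of the list were called higher and 0 lower. Under that scaling 6051 of all genes were called in either direction, against 5307 without it. Since it moves every gene up and the share called higher was not computed, these counts too are no result about the list. ADSS1, the other adenylosuccinate synthase isozyme beside ADSS2, was at 6.74 in the control mean and gave -0.17 (limma adjusted p = 0.0564).

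Enzymes of purine breakdown and of nucleotide cleaning formed another list. Of 7 measured genes 3 rose and 0 fell, with a median of 0.14. The 42.9% called stand against 26.8% of all genes called in either direction and 14.0% called higher. Since the share called in either direction is larger with dim genes left out, the 42.9% is no result about the list. ITPA, which hydrolyses inosine triphosphates, rose by 0.65 (1.57-fold, limma adjusted p = 0.00028). The guanine deaminase GDA rose by 0.60 (limma adjusted p = 0.000208), and SAMHD1, which hydrolyses deoxynucleotides, rose by 0.60 (limma adjusted p = 0.000618). A second GDA probe set rose by 0.88, and of the 5 other SAMHD1 probe sets 4 were called higher.

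One-carbon enzymes supply the formyl groups that GART and ATIC consume. Of 10 measured genes 3 rose and 0 fell, with a median of 0.10. The 30.0% called, all higher, are near the 26.8% of all genes called in either direction, with 14.0% called higher. They are no result about the list. The mitochondrial folate carrier SLC25A32 rose by 0.50 (limma adjusted p = 0.000305), MTHFD2L, a mitochondrial folate dehydrogenase, rose by 0.35 (limma adjusted p = 0.00465), and MTHFD1, which makes the formyl donor in the cytosol, rose by 0.31 (limma adjusted p = 0.0116). MTHFD2L has 8 probe sets, and its second brightest gave -0.20 and did not pass (limma adjusted p = 0.0776 over all probe sets). The next, at a mean of 5.67, rose by 0.28 and was called, and the rest ran from -0.28 to 0.19 and did not pass. MTHFD1 has a dim second probe set, at a mean of 4.12, that fell by 0.77, and with the mean of all probe sets 1 gene of this list was called higher and 1 lower. The serine hydroxymethyltransferase SHMT2 (0.0015) and MTHFD2 (0.0088), a mitochondrial folate enzyme, did not pass.

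**Figure D4:**
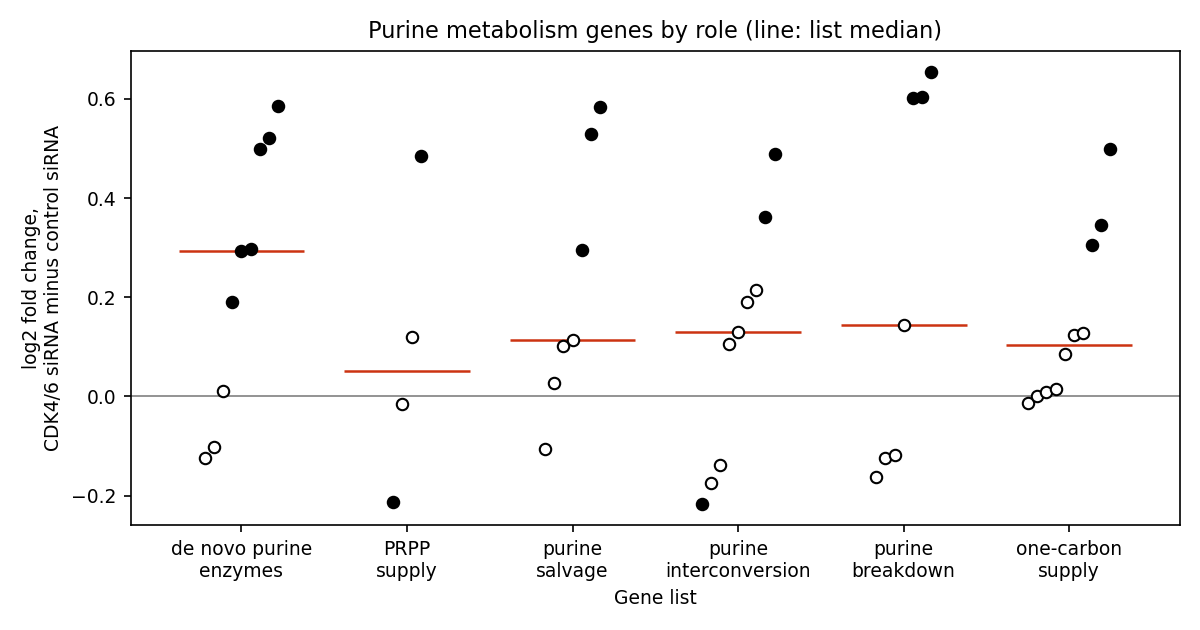
Each point is the log2 fold change of 1 gene, CDK4/6 siRNA minus control siRNA, sorted within its list; filled points have an adjusted p under 0.05 and red lines are list medians. The de novo enzymes have 6 filled points, all above 0, and a median of 0.29. The medians of the other 5 lists, some of which hold dim genes, run from 0.052 to 0.14.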

How the data were processed

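Expression was measured in 6 samples of HCT116 cells, 3 per group, on single-channel Affymetrix arrays. The deposited values are log2 expression per probe set, made by the authors with RMA per the submitters' processing notes; its version is not given in the sources used here. RMA makes array distributions alike, so fold changes are relative to the bulk of genes, and the number of arrays limits the precision. Of 54675 probe sets 62 were array controls, and 41091 others had 1 gene symbol in the platform annotation.

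Genes (19775, brightest probe set each) were fitted in R 4.3.3 with limma 3.58.1 (lmFit, eBayes) on group alone, and p-values were adjusted by Benjamini-Hochberg over all genes. A second fit covered all probe sets that were not controls. Single within-array differences were compared by two-sided exact permutation tests. No dim genes were removed. The code was tested on simulated data. Named were all members, of each further list up to 3 genes with the smallest adjusted p, CDK4, CDK6 and MYC; HPRT1, PRPSAP2, ADSS1, SHMT2 and MTHFD2 were named after their values were seen. The members, lists and tests were chosen with earlier results of these data known. Alternatives were a replicate block, quantile normalisation, spike-in scaling, leaving out the dimmest genes, the mean of all probe sets, plain-name probe sets, probe sets with 1 symbol, trend and robust options, each array left out, unmoderated variances and a stricter threshold of 0.01. Figures used matplotlib 3.10.9.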

Additional observations from a re-analysis of the deposited data

How the results depend on the processing

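In each of the 16 alternative settings between 4 and 7 enzymes were called higher, while the number of all genes called in either direction ran from 3326 to 6051. The share of all genes called higher was not computed for each setting. The counts therefore show how the enzyme calls move, not whether they exceed the background. The enzyme count was 7 with the mean of all probe sets, where 4742 of all genes were called. It was 4 with plain-name probe sets, where ADSL and IMPDH2 have none and 3830 of the genes that have one were called. When 1 array was left out it ran from 5 to 6, with 0 called lower, beside 4225 to 4726 of all genes called. With trend and robust options 1 enzyme, IMPDH2, was called lower, and 5938 of all genes were called. The members' median was 0.40 with the spike-in scaling, 0.23 with plain-name probe sets and 0.25 to 0.31 with 1 array left out. Restricting to probe sets with 1 symbol changed nothing, since no member shares a probe set with another symbol.

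Replicate numbers are shared between groups in the labels without a stated day or batch, and same-numbered arrays did not deviate together (correlations of -0.010, -0.12 and -0.0066). With the replicate block 5 enzymes were called higher, while 4738 of all genes were called, and PAICS had a limma adjusted p of 0.0659. The calls of PRPS2 and AMPD2 were also lost. PAICS was also lost at the threshold of 0.01. PPAT turned to -0.15 on its plain-name probe set and GMPS to 0.31 with the mean of all probe sets, which also lowered PPAT to 0.28 and GART to 0.27, both still called. IMPDH1 turned to -0.017 with quantile normalisation and ran from -0.019 to 0.049 with 1 array left out, and IMPDH2 turned to 0.0061 with the spike-in scaling. PAICS minus PPAT was -0.078 with the mean of all probe sets and 0.37 on plain-name probe sets, and IMPDH2 minus PPAT was -0.38 with the mean. With 1 array left out PAICS minus PPAT ran from -0.37 to -0.31, IMPDH2 minus PPAT from -0.65 to -0.59 and IMPDH2 minus IMPDH1 from -0.16 to -0.076. The causes of these shifts were not tested. At the threshold of 0.01, 3326 of all genes were called, against 5307.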
